A study of Mus musculus with 6 samples.

Results

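The genes of p53, senescence, DNA damage and apoptosis were examined in primary mouse hepatocytes, the parenchymal cells of the liver, on Affymetrix expression arrays. The 45 members were taken by symbol. A member was measured where a probe set carried that single symbol in the platform annotation, and the brightest probe set over all arrays stood for the gene. By this rule 40 members were measured of 12393 genes in all, H2afx under its present symbol H2ax. Trp53, Mdc1, Tigar, Bax and Hmgb1 were not analysed here. The 3 transgenic samples came from Alb/AEG-1 mice, in which the promoter of the albumin gene drives expression of astrocyte elevated gene 1 (AEG-1, encoded by Mtdh) in hepatocytes. The 3 control samples came from wild-type mice. Both genotypes are of mixed B6/CBA strain, and all cells were untreated and were harvested 24 h after plating on collagen. The labels call the samples biological replicates but give neither the age of the mice nor whether each came from its own animal. The p-values therefore reflect only variation among these 6 samples, which may be technical.

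p53 is a transcription factor that is held at low activity by MDM2 and MDM4 and released by the kinases ATM, ATR, CHK1 and CHK2 after DNA damage. Its targets stop the cell cycle, raise antioxidant defence, or start apoptosis through BCL2 family proteins at the mitochondrion. A lasting arrest, senescence, is marked by p21 (Cdkn1a) and p16 (Cdkn2a), loss of lamin B1, lysosomal beta-galactosidase and a secretory programme. Cells that overexpress AEG-1 have been reported to resist senescence and its DNA damage response, and the comparison of genotypes asks how the transcripts of these pathways differed.

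p53 binds a decamer element, usually as a pair. In the 250 bases before each RefSeq start (GRCm38.p6), 44 windows of 34 measured members were found, and 5 of these windows held a match to the p53 decamer (11.4%), against 7.13% of 32851 windows over all genes. The element is nearly its own reverse complement, so a match serves both strands. The windows shown are those with a match among the members that passed the test below (Mdm2, Gadd45a and Ccng1), and a Cdkn1a window with 2 matches. Cdkn1a also has a window before another start farther downstream (chr17:29093519-29093768, plus strand), which held 0 matches and is not shown. Capitals mark the matches.
Mdm2, chr10:117710759-117711008, minus strand: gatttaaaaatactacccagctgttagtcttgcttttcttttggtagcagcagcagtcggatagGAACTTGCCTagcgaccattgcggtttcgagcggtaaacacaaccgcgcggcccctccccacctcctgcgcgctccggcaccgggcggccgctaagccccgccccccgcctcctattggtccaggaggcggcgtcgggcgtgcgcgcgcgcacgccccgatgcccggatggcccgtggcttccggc
Gadd45a, chr6:67037408-67037657, minus strand: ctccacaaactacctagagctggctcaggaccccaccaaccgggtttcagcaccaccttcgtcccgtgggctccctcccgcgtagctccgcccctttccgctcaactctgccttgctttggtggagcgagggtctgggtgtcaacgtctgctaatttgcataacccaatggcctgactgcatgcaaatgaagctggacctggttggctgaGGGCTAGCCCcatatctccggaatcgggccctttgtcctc
Ccng1, chr11:40755287-40755536, minus strand: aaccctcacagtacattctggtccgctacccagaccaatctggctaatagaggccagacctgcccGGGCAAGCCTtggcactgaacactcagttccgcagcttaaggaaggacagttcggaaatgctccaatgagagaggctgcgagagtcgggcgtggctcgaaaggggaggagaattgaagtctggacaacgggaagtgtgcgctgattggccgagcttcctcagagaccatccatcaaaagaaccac
Cdkn1a, chr17:29090729-29090978, plus strand: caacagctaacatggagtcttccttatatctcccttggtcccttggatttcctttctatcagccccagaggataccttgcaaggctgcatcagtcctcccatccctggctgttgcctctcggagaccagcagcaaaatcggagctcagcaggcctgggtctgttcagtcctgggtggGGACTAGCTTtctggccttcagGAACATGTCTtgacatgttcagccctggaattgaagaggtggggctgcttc
The match began 186 bases before the start in Mdm2, 40 in Gadd45a and 185 in Ccng1. In Cdkn1a the first match began 73 bases before the upstream start, that of the window shown. The remaining match was in a window of Sesn1. The element TTTGAA, on either strand, which is found in promoters repressed in resting cells, was in 4 of the 44 windows (9.09%), against 16% of all windows. None of the 4 windows shown holds it. These are matches of letters and do not show binding.

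Array medians over all probe sets ran from 5.61 to 5.64 on the log2 scale, and a first principal component with 65.0% of the variance divided the 2 genotypes. Mtdh was at 10.72, 10.40 and 10.81 in transgenic and 8.75, 8.78 and 8.64 in wild-type arrays, a difference of 1.92 (SE 0.10, limma adjusted p = 2.04e-05). This was read from 1 of its 6 probe sets. When all probe sets were tested, 1 other passed as higher by 0.24 (adjusted p = 0.0495) and 4 did not pass, with differences from -0.27 to 0.00. All differences below are transgenic minus wild type in log2 units, and p-values are from limma with Benjamini-Hochberg adjustment over all genes. A gene was called at an adjusted p under 0.05.

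Of the 40 measured members, 10 were called (25%), beside 15.9% of all genes. The 8 members that fell were Casp8, Zmat3, Ccng1, Gadd45a, Sirt1, Gadd45g, Atr and Bad (20.0% of members, against 9.05% of all genes). The 2 that rose were Bcl2l1 and Mdm2 (5.0%, against 6.83%). Transgenic and wild-type values were fully separate for 16 members (40.0%, against 34.5%), 5 of them higher and 11 lower in transgenic cells. Over all genes 16.9% were separate and higher, and 17.6% separate and lower. Changes were small. At the brightest probe sets no member reached 1.5-fold (0 of 40), and the median difference was -0.04, beside 0.01 over all genes. For 38 members the 95% interval of the difference lay within 1.5-fold in either direction, the exceptions being Casp8 and Zmat3. Members at or above the median level of all genes, 6.07, were called in 7 of 17 cases (41.2%, against 24.8% of all such genes), and dimmer members in 3 of 23 (13%, against 6.95%).

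**Figure D1:**
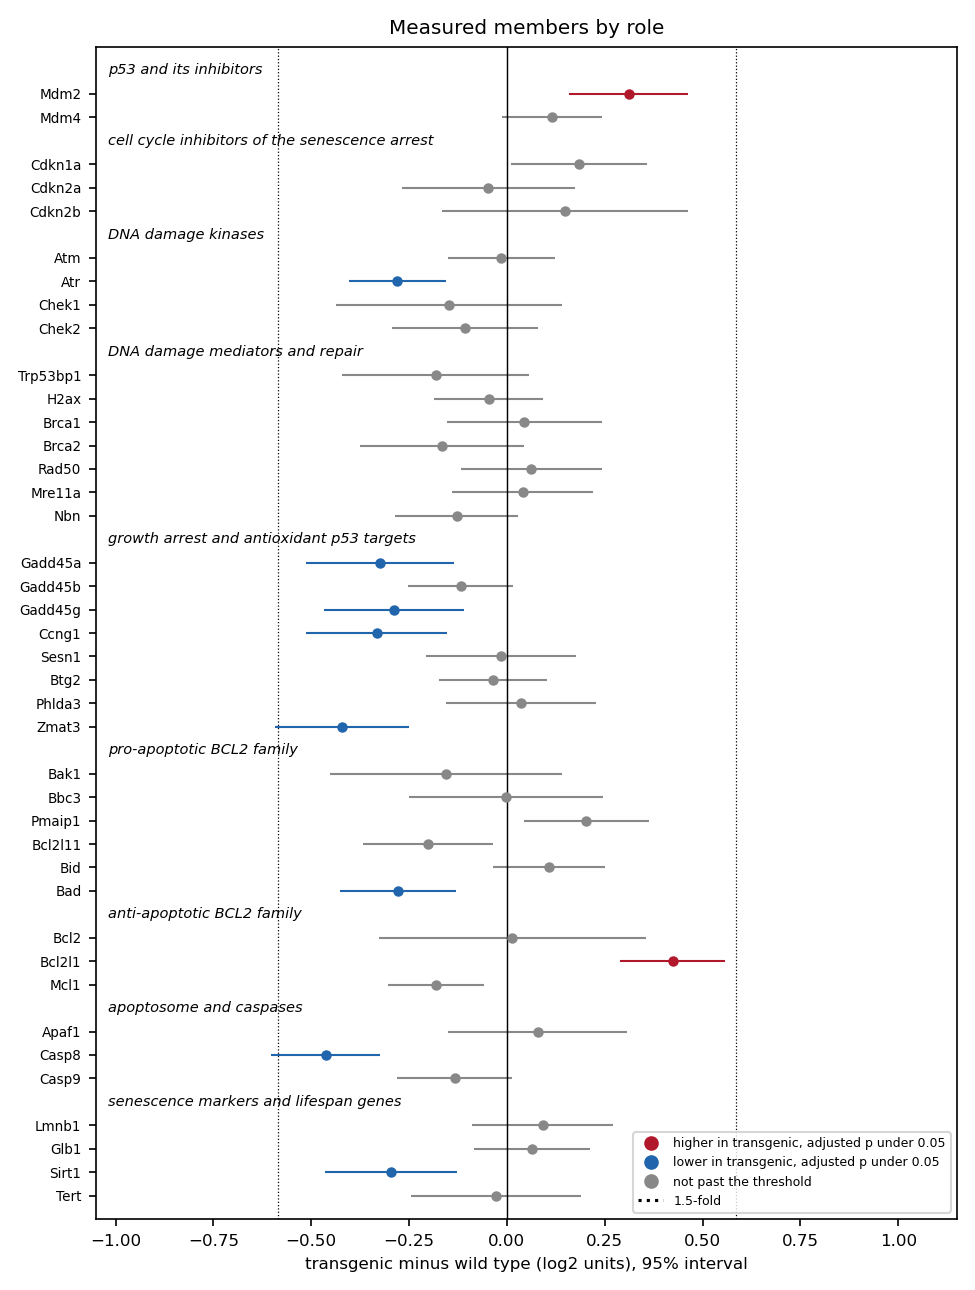
Difference between transgenic and wild-type hepatocytes (log2 units, horizontal axis) for the 40 measured members, grouped by role, with the 95% interval from limma as a bar. Red points rose, blue points fell, grey points did not pass the threshold, and dotted lines mark 1.5-fold. All 40 points lie between -0.46 and 0.42.

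Mdm2, which encodes the ubiquitin ligase that marks p53 for degradation and is itself a p53 target, was at 9.24, 9.17 and 9.07 in transgenic and 8.92, 8.79 and 8.84 in wild-type arrays. Every transgenic array lay above every wild-type one. The transcript rose by 0.31 (SE 0.07, limma adjusted p = 0.0170), or 1.24-fold. The other Mdm2 probe set on the array was at 8.65, 8.68 and 8.68 against 8.02, 7.87 and 7.82. It gave a larger rise of 0.77 (SE 0.07, adjusted p = 0.000285 over all probe sets), and the mean of both gave 0.54. The call at the brightest probe set was lost without transgenic replicate 1 or 2 or wild-type replicate 2 or 3, with differences from 0.27 to 0.31 and adjusted p from 0.0545 to 0.0655. Mdm4, the relative of MDM2 that masks the activating domain of p53, was at 5.51, 5.58 and 5.49 against 5.42, 5.45 and 5.37. The groups did not overlap, but the difference of 0.11 (SE 0.06, adjusted p = 0.221) did not pass.

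The cell cycle inhibitors of the senescence arrest were not called. Cdkn1a, which encodes the CDK inhibitor p21 and is a main transcriptional target of p53, was at 9.78, 9.57 and 9.54 in transgenic and 9.42, 9.50 and 9.41 in wild-type arrays. The transgenic arrays lay above the wild-type ones, with transgenic replicate 1 apart from the other two, and the difference was 0.18 (95% interval 0.01 to 0.36, adjusted p = 0.152). Without that array the difference was 0.11 (adjusted p = 0.377). The other Cdkn1a probe set was at 9.65, 9.57 and 9.64 against 9.41, 9.40 and 9.30. It passed as higher (0.25, SE 0.06, adjusted p = 0.0316 over all probe sets), as did the mean of both (0.22, adjusted p = 0.0417). Cdkn2a, the p16 and ARF locus, was dim, at 3.41, 3.29 and 3.42 against 3.37, 3.26 and 3.62, with overlapping groups and a difference of -0.05 (interval -0.27 to 0.17). Without wild-type replicate 3 its difference was 0.05, also not past the threshold (adjusted p = 0.709). Cdkn2b, the p15 inhibitor of CDK4 and CDK6, gave 0.15 (interval -0.17 to 0.46), and its wild-type arrays spread from 4.39 to 5.0.

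Among markers of senescence and lifespan, 1 of 4 members passed (25%, against 15.9% of all genes). Sirt1, a deacetylase that acts on p53 among other proteins, was at 5.47, 5.49 and 5.65 in transgenic and 5.76, 5.81 and 5.93 in wild-type arrays. The groups did not overlap, and Sirt1 fell by 0.30 (SE 0.07, adjusted p = 0.0303), or 1.23-fold. Without transgenic replicate 1 or 2 or wild-type replicate 2 or 3 that call was lost (differences from -0.31 to -0.25, adjusted p from 0.0750 to 0.100). Lmnb1, the lamin whose loss marks senescent nuclei, gave 0.09 (interval -0.09 to 0.27). Glb1, the lysosomal beta-galactosidase read by the senescence stain, gave 0.06 (interval -0.08 to 0.21). Tert, the catalytic subunit of telomerase, gave -0.03 (interval -0.25 to 0.19). For these 3 genes the genotypes overlapped, and the intervals leave out changes of 1.5-fold in signal. Tert was at a low signal of 4.54 against 4.57. Differences near background are compressed, so its interval may not hold for the transcript.

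Of the 4 DNA damage kinases 1 passed (25%, against 15.9% of all genes). All 4 were below the median level, where 6.95% of all genes were called. Atr, which senses stretches of single-stranded DNA at stalled forks, was at 5.56, 5.64 and 5.58 in transgenic and 5.86, 5.91 and 5.86 in wild-type arrays, with a clear gap between the groups. It fell by 0.28 (SE 0.05, adjusted p = 0.0105), or 1.21-fold, and passed in all 16 alternative fits run for it. Atm, which answers double-strand breaks, was alike in both genotypes at 4.74, 4.80 and 4.66 against 4.78, 4.76 and 4.70 (difference -0.01, interval -0.15 to 0.12). The effector kinase genes Chek1 and Chek2 gave -0.15 (interval -0.44 to 0.14) and -0.11 (interval -0.29 to 0.08). Of the 4 Chek1 probe sets, the second brightest passed as lower at a low signal of 3.26 against 3.69 (-0.43, adjusted p = 0.00890 over all probe sets), and the other 3 did not. The brightest passed as lower in the fit without transgenic replicate 2, the highest of the 6 arrays.

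None of the 7 measured DNA damage mediators and repair genes passed (0 by limma, and 0 at an unadjusted p under 0.05), and the groups overlapped for all 7. Signal limits this result, since 5 of the 7 were below the median level, where 6.95% of all genes were called. Trp53bp1, the chromatin reader that steers breaks to end joining, gave -0.18 (interval -0.42 to 0.06), with wild-type arrays at 6.14, 5.93 and 5.70 around transgenic arrays at 5.78, 5.71 and 5.75. Brca2, a gene of homologous recombination, gave -0.17 (interval -0.37 to 0.04), and Brca1 gave 0.04 (interval -0.15 to 0.24). The genes of the break-sensing MRN complex gave 0.06 for Rad50, 0.04 for Mre11a and -0.13 for Nbn. H2ax, whose histone is phosphorylated at breaks, was at 6.31, 6.22 and 6.17 against 6.27, 6.24 and 6.34, a difference of -0.05 (interval -0.19 to 0.09). Transcript levels carry no information on that phosphorylation.

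The growth arrest and antioxidant targets of p53 held the most calls of any role, with 4 of 8 fallen, 0 risen and a median of -0.20. That is 50% fallen, against 9.05% of all genes. Other p53 targets stand in other roles: Mdm2, which rose, and Cdkn1a, Pmaip1 and Bbc3, which were not called. The roles were drawn with earlier results of these data known, so the count does not speak for p53 targets as a whole. The role is bright, with 6 of 8 genes at or above the median level, and 3 of those 6 were called, against 24.8% of all such genes. Zmat3, which encodes an RNA-binding protein induced by p53, was at 5.21, 5.20 and 5.31 in transgenic and 5.52, 5.75 and 5.71 in wild-type arrays. The groups were apart, and Zmat3 fell by 0.42 (SE 0.07, adjusted p = 0.00750), or 1.34-fold, at a level under the median of all genes. Ccng1, the cyclin G1 gene and a classical p53 target, was at 8.04, 7.94 and 8.05 against 8.41, 8.19 and 8.42. All transgenic arrays lay below the lowest wild-type one, replicate 2, and Ccng1 fell by 0.33 (SE 0.08, adjusted p = 0.0246). Its 2 other probe sets gave -0.16 and -0.11, neither past the threshold, and the mean of the 3 gave -0.20 (adjusted p = 0.0714).

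The 3 Gadd45 genes, which encode small stress sensors that act on growth arrest and MAP kinase signalling, were measured at high signal. Gadd45a was at 11.89, 11.94 and 11.98 in transgenic and 12.09, 12.38 and 12.31 in wild-type arrays, and fell by 0.32 (SE 0.08, adjusted p = 0.0332). Gadd45g was at 9.71, 9.69 and 9.53 against 10.02, 9.97 and 9.81, and fell by 0.29 (SE 0.08, adjusted p = 0.0408). In neither gene did the groups overlap, with wild-type replicate 1 the lowest control for Gadd45a and replicate 3 for Gadd45g. Gadd45b, at 10.88, 10.85 and 10.90 against 11.06, 11.01 and 10.92, did not pass (-0.12, interval -0.25 to 0.02). Its second brightest probe set did pass as lower (-0.25, adjusted p = 0.0374 over all probe sets), while the dimmest gave 0.15. Phlda3, an inhibitor of AKT, gave 0.04, Sesn1, a stress-induced inhibitor of mTORC1, gave -0.02, and the antiproliferative gene Btg2 gave -0.04, each with overlapping groups.

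Calls in this role other than Zmat3 were lost without single arrays. Ccng1 was lost without any 1 of transgenic replicates 1, 2 and 3 and wild-type replicates 1 and 3 (differences from -0.35 to -0.29, adjusted p from 0.0568 to 0.0850). Gadd45a was lost without any 1 of transgenic replicates 1, 2 and 3 and wild-type replicates 2 and 3 (from -0.35 to -0.26, adjusted p from 0.0709 to 0.105). Gadd45g was lost without any 1 of transgenic replicates 1, 2 and 3 and wild-type replicates 1 and 2 (from -0.32 to -0.23, adjusted p from 0.0682 to 0.121). The direction was lower in each of these fits.

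**Figure D2:**
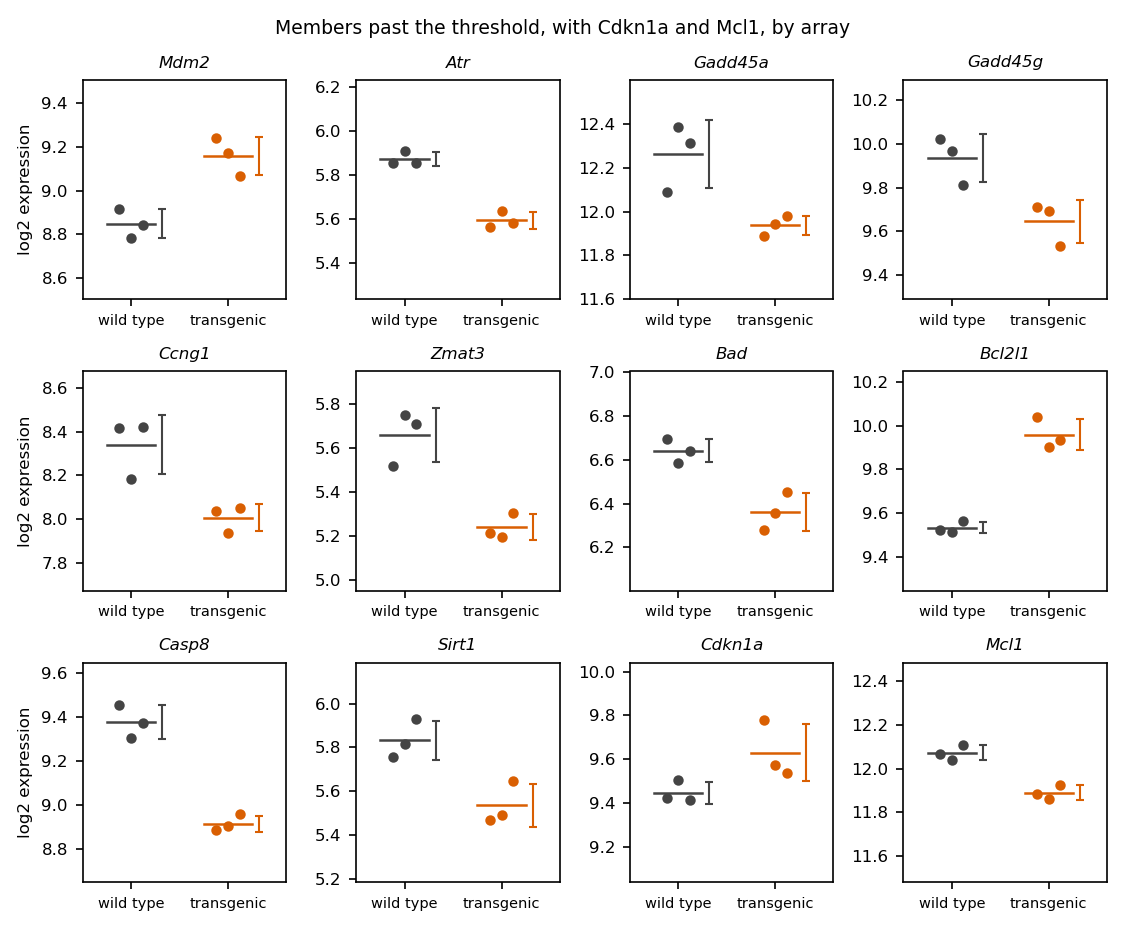
Log2 expression (vertical axis, each panel spanning 1 log2 unit) of the 10 called members, and of Cdkn1a and Mcl1, on the 3 wild-type and 3 transgenic arrays. Points are arrays, horizontal lines are means and bars to the right are ± 1 SD. In all 12 panels the genotypes do not overlap. The 10 called members are shown because they passed the test, which favours separate values. The genotypes do not overlap for 16 of the 40 measured members and for 34.5% of all genes.

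The anti-apoptotic BCL2 family genes went different ways. Bcl2l1, which encodes BCL-XL, the guardian of the outer mitochondrial membrane on which hepatocytes depend, was at 10.04, 9.90 and 9.93 in transgenic and 9.52, 9.51 and 9.56 in wild-type arrays. The lowest transgenic array lay well above the highest wild-type one. Bcl2l1 rose by 0.42 (SE 0.06, adjusted p = 0.00231), or 1.34-fold, and kept its call whichever array was left out. Of its 4 probe sets another also passed as higher (0.31, adjusted p = 0.0161 over all probe sets), at 6.41, 6.48 and 6.49 against 6.16, 6.21 and 6.06. One probe set ran the opposite way without passing (-0.23, adjusted p = 0.116), and the dimmest gave 0.07. The mean of the 4 gave 0.15, which did not pass (adjusted p = 0.149).

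Mcl1, a short-lived BCL2 relative, was at 11.88, 11.86 and 11.93 in transgenic and 12.07, 12.04 and 12.11 in wild-type arrays. The groups did not overlap and the spread within each was small (SD 0.03 in both), but the difference of -0.18 (SE 0.05) had an adjusted p of 0.0557. It passed with an intensity trend in the variance prior (0.00125), among brighter genes only (0.0121), without variance moderation (0.0355) and with array weights (0.0431). All 6 Mcl1 probe sets gave negative differences, from -0.18 to -0.04, and 0 of them passed on their own. Bcl2 itself was variable, at 5.41, 6.01 and 5.75 against 5.55, 5.71 and 5.87, with a difference of 0.01 (interval -0.33 to 0.35).

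Of 6 pro-apoptotic BCL2 family members 1 passed (16.7%, against 15.9% of all genes). Bad, a BH3-only protein gene whose product binds BCL-XL, was at 6.28, 6.36 and 6.45 in transgenic and 6.69, 6.59 and 6.64 in wild-type arrays. The groups did not overlap, and Bad fell by 0.28 (SE 0.06, adjusted p = 0.0238). Its other probe set gave -0.07, and the mean of both gave -0.17 (adjusted p = 0.0598). The call was also lost with the replicate number as a block (adjusted p = 0.0576) and without transgenic replicate 1 or 2 or wild-type replicate 1 or 3 (differences from -0.28 to -0.24, adjusted p from 0.0638 to 0.0872). Bcl2l11, the BH3-only gene of BIM, was at 6.56, 6.43 and 6.64 against 6.68, 6.75 and 6.81, with no overlap and a difference of -0.20 (SE 0.07, adjusted p = 0.101). All 5 of its probe sets gave negative differences, and the second brightest passed as lower (-0.28, adjusted p = 0.0289 over all probe sets).

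The p53 targets among the pro-apoptotic genes were not called. Pmaip1, which encodes NOXA, was near background at 3.45, 3.30 and 3.41 in transgenic and 3.21, 3.09 and 3.26 in wild-type arrays, a difference of 0.20 (SE 0.07, adjusted p = 0.0901) without overlap. Bbc3, which encodes PUMA, was level, with a transgenic mean of 5.04 ± 0.12 against 5.04 ± 0.20 (SD, n = 3 each). Bid, the BH3-only substrate of caspase-8, gave 0.11 (interval -0.03 to 0.25), and Bak1, a pore former of the mitochondrial membrane, gave -0.16 (interval -0.45 to 0.14). Both had overlapping groups.

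Casp8, the initiator caspase recruited to death receptors, showed the largest difference of the 40 members at the brightest probe sets, while the mean of the Mdm2 probe sets was larger. It was at 8.89, 8.90 and 8.96 in transgenic and 9.46, 9.31 and 9.37 in wild-type arrays. Every transgenic array lay well below every wild-type one. Casp8 fell by 0.46 (SE 0.06, adjusted p = 0.00182), or 1.38-fold, and passed in all 17 alternative fits, with differences from -0.50 to -0.42. Casp9, the initiator caspase of the apoptosome, gave -0.13 (interval -0.28 to 0.01), and Apaf1, the apoptosome scaffold, gave 0.08 (interval -0.15 to 0.31) at a low signal of 4.07 against 3.99.

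Several probe sets were available for 20 of the 40 members. Mdm2 and Bcl2l1 each had 2 probe sets that passed as higher. Members whose brightest probe set did not pass, but which had another that did, were Cdkn1a (higher) and Chek1, Gadd45b and Bcl2l11 (lower). No member had probe sets called in opposite directions (0 of 20).

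**Figure D3:**
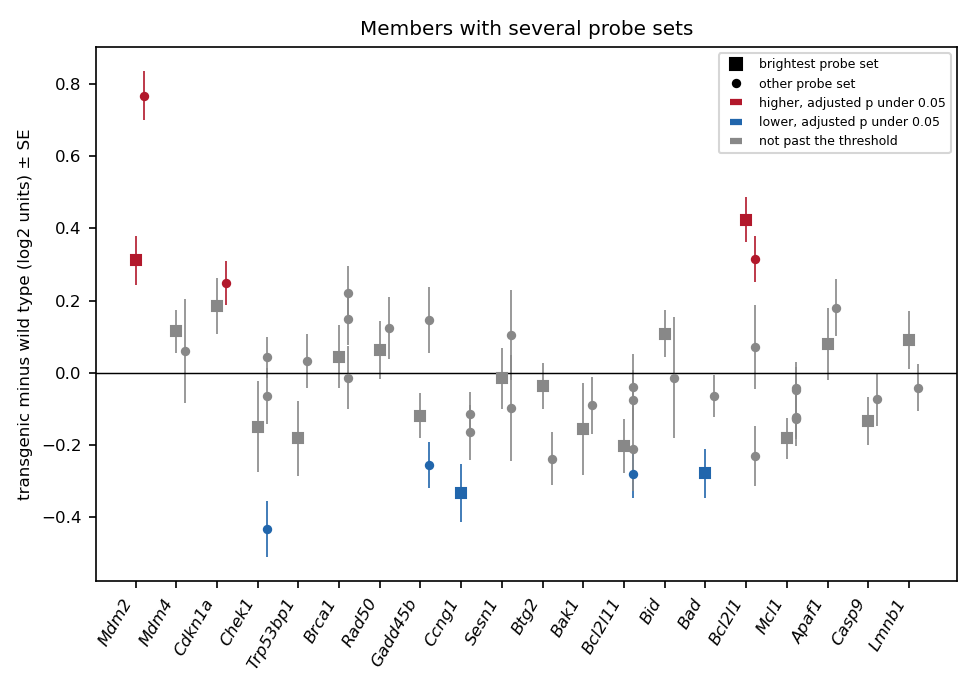
Difference between transgenic and wild-type arrays (log2 units, vertical axis) with its SE, for each probe set of the 20 members that have several. Squares are the brightest probe sets, circles the others, red passed as higher, blue as lower and grey did not pass, with p adjusted over all probe sets. The second Mdm2 probe set, at 0.77, is the largest difference shown.

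Other genes of these pathways were taken from 9 lists that hold no member. Of 234 measured genes on them, 29 rose and 27 fell, 23.9% in all beside 15.9% over all genes, with a median difference of 0.01. By direction 12.4% rose and 11.5% fell. The shares over all genes, to be set beside each list below, were 6.83% risen and 9.05% fallen. Among 18 regulators of p53, 2 rose (11.1%) and 1 fell (5.56%). Daxx, a histone chaperone that binds MDM2, was at 6.89, 7.0 and 6.80 against 6.29, 6.30 and 6.18 and rose by 0.64 (SE 0.07, adjusted p = 0.000785), and Pml, the scaffold of nuclear bodies, rose by 0.41. Both were called under each alternative run for them. Usp10, a deubiquitinase of p53, fell by 0.30 (adjusted p = 0.0327), a call kept under 11 of 17 alternatives. The fallen numbered 0 without transgenic replicate 1, wild-type replicate 2 or wild-type replicate 3. They also numbered 0 with quantile normalization or without variance moderation.

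Among 34 further p53 target genes 3 rose and 3 fell (8.82% each), with a median of -0.01. The risen numbered 2 whichever array was left out, and the fallen 8 with an intensity trend in the variance prior. Trp53inp1, an autophagy and stress protein gene, was at 10.78, 10.82 and 10.88 in transgenic and 11.28, 11.41 and 11.46 in wild-type arrays. It fell by 0.56 (SE 0.07, adjusted p = 0.00110), or 1.47-fold, beside the member targets Zmat3 and Ccng1. The sugar phosphate enzyme gene Pmm1 and the xylulose reductase gene Dcxr each fell by 0.46. The transcriptional repressor gene Bcl6 rose by 0.84 (SE 0.07), and the stress-responsive gene Ndrg1 rose by 0.76 (SE 0.06), and the average over its 5 probe sets was 0.75. Fas, the death receptor gene, rose by 0.21 (adjusted p = 0.0378), kept under 9 of 17 alternatives.

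In the list of DNA damage checkpoint and double-strand break repair, 7 of 34 genes fell (20.6%, against 9.05% of all genes) and 0 rose. The list as a whole did not shift, with 17 differences positive, 17 negative and a median of -0.002. Of its 15 genes at or above the median level 6 were called (40%, against 24.8% of all such genes). All 3 subunits of replication protein A, which coats single-stranded DNA and brings ATR to it, were among the fallen. Rpa1 was at 8.89, 8.88 and 8.84 in transgenic and 9.28, 9.27 and 9.21 in wild-type arrays, a fall of 0.38 (SE 0.05, adjusted p = 0.00246). Rpa3 fell by 0.36 and Rpa2 fell by 0.28, both named after their values were seen. Rpa1 passed in all 17 alternative fits, Rpa2 in 13 of 16 (adjusted p up to 0.0596) and Rpa3 in 11 of 17 (up to 0.120). Fancl, the ligase subunit of the Fanconi anaemia pathway, fell by 0.35, and Xrcc6, the Ku70 end-joining gene, fell by 0.30. The count of fallen genes was 3 without transgenic replicate 2, without wild-type replicate 2 or without wild-type replicate 3. Of 28 excision repair genes 4 rose (14.3%) and 1 fell (3.57%). The risen and fallen numbered 2 and 2 with the mean of probe sets, 1 and 1 without variance moderation and 2 and 0 with the replicate block. The risen numbered 2 without transgenic replicate 3, wild-type replicate 2 or wild-type replicate 3, and the fallen 0 without transgenic replicate 1 or 3 or wild-type replicate 1 or 3. Ung, the uracil glycosylase, rose by 0.59 (SE 0.11, adjusted p = 0.00777), Xpa, a nucleotide excision repair scaffold, by 0.33 and Ogg1, the 8-oxoguanine glycosylase, by 0.35. The mean of the probe sets was 0.19 for Xpa and 0.13 for Ogg1, neither past the threshold. The replicative ligase gene Lig1 fell by 0.29 (adjusted p = 0.0284).

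Death receptor signalling genes gave 3 risen (14.3%) and 2 fallen (9.52%) of 21. The fallen numbered 1 whichever array was left out and 0 without variance moderation, and the risen 2 without transgenic replicate 2 or any 1 wild-type array. Beside Casp8 at the receptor complex, the adaptor gene Fadd fell by 0.25 (SE 0.06, adjusted p = 0.0383), at 5.82, 5.81 and 5.76 against 6.0, 5.98 and 6.15. Fadd was called under 8 of 16 alternatives. Tnfsf10, the ligand TRAIL, fell by 0.47 at a low signal, while the inflammatory caspase gene Casp4 rose by 0.55. The receptor gene Fas and Daxx were the other risen genes, by 0.21 and 0.64. Both are the same calls as those counted in the p53 lists above. Among 25 other BCL2 family and mitochondrial apoptosis genes 3 rose (12%) and 2 fell (8%). The fallen numbered 0 without transgenic replicate 1, 2 or 3, without wild-type replicate 2, with the replicate block or without variance moderation, and 1 without wild-type replicate 1 or 3. The risen numbered 1 without wild-type replicate 2 and 2 without any other array. Bik, a BH3-only gene, was at 7.18, 7.22 and 7.24 in transgenic and 6.5, 6.27 and 6.33 in wild-type arrays. It rose by 0.84 (SE 0.07, adjusted p = 0.000210), or 1.80-fold, with an average of 0.95 over its 3 probe sets and a range from 0.80 to 1.40 over the alternative fits. Casp2 rose by 0.45 and the mitophagy gene Bnip3 by 0.22, calls kept under 13 of 16 and 11 of 17 alternatives. Bok, a BAX-like gene, fell by 0.30, kept under 10 of 17, and Aifm1, which encodes a mitochondrial flavoprotein, fell by 0.21, a call kept under 4 of 17 alternatives.

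Growth arrest and senescence chromatin genes gave 3 risen (8.82%) and 9 fallen (26.5%) of 34, with a median of -0.03. Asf1a, a histone chaperone of senescence heterochromatin, fell by 0.46 (SE 0.06), Rbl2, the retinoblastoma relative p130, fell by 0.42 (an average of -0.28 over its 2 probe sets) and the transcription factor gene Ets2 fell by 0.43. The cyclin E gene Ccne1, which drives entry into S phase, rose by 0.37 (SE 0.06, adjusted p = 0.00647), Ets1 by 0.32 and the Polycomb methyltransferase gene Ezh2 by 0.25. The calls of Ets1 and Ezh2 were each kept under 10 of 17 alternatives, and Ets1 averaged 0.16 over its 4 probe sets (adjusted p = 0.0821). The risen numbered 1 without transgenic replicate 1 or 3 or wild-type replicate 1 or 2, and 2 without wild-type replicate 3. The fallen numbered 5 without transgenic replicate 1, without transgenic replicate 2 or without wild-type replicate 2, 6 without transgenic replicate 3 and 4 without wild-type replicate 3. With quantile normalization or the replicate block the fallen numbered 5. Without variance moderation 3 fell and 2 rose. Of 13 telomere genes, the tankyrase gene Tnks2 rose by 0.29 (an average of 0.03 over its 2 probe sets, not past the threshold), and the shelterin gene Terf2 fell by 0.29. The call of Terf2 was lost without transgenic replicate 1 or 2 or wild-type replicate 2 or 3 (adjusted p up to 0.100 over its alternatives).

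Senescence-associated secretory genes, the cytokines, chemokines and proteases that senescent cells release, gave 12 of 34 risen, 1 fallen and a median of 0.11. That is 35.3% risen, beside 6.83% of all genes. By p-value Ccl3, Il6 and Cxcl2 led, with Il6 at 6.12, 5.92 and 6.0 in transgenic and 4.55, 4.03 and 4.08 in wild-type arrays (1.80, SE 0.13, adjusted p = 0.000110), Ccl3 up by 1.89 and Cxcl2 by 0.96. The rise of Ccl5, 0.99, was larger than that of Cxcl2, and the gene was named after its values were seen. Angptl4, which also answers to fatty acid receptors, was the gene that fell, by 1.92. It averaged -1.30 over its 2 probe sets and ran from -1.96 to -0.69 over the alternative fits, past the threshold in all 17. These genes are shared with NF-kB and macrophage programmes.

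**Figure D4:**
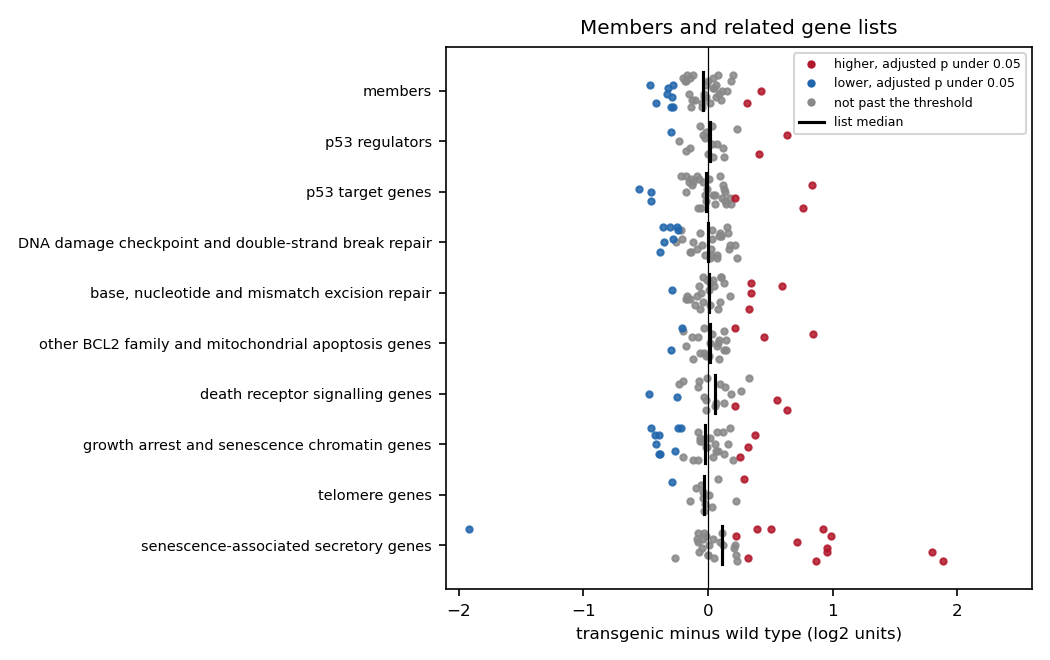
Difference between transgenic and wild-type hepatocytes (log2 units, horizontal axis) for the 40 members and for each measured gene of 9 related lists, 1 row per list. Red points rose, blue points fell, grey points did not pass and black bars are list medians. The secretory list holds the widest range, from -1.92 to 1.89.

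Markers of other liver cells were read on the same arrays, since fewer cells of a type and less RNA per cell cannot be told apart in bulk samples. Of 9 hepatocyte markers 0 passed, and their summed level was from 16.93 to 16.97 log2 units in transgenic and from 16.92 to 16.96 in wild-type arrays. Of 15 Kupffer cell and macrophage markers 4 rose (Ptprc, Mrc1, Marco and C1qc) and 2 fell (Cd14 and Cd163). In this list 12 differences were positive and 3 negative. The genotypes were fully separate for 11 markers (73.3%, against 34.5% of all genes), 9 higher and 2 lower in transgenic cells. The shares over all genes were 16.9% separate and higher, and 17.6% separate and lower. Summed levels overlapped, from 10.98 to 11.03 against from 10.93 to 11.06, but the brightest marker, Cd14, weighs most in that sum. Of 11 endothelial markers 3 rose (Clec4g, Bmp2 and Kdr), with summed levels from 10.02 to 10.11 against from 9.75 to 9.91. The stellate cell list had 1 of 10 risen (Lum), with summed levels from 9.81 to 9.88 against from 9.73 to 9.84. The bile duct list had 1 of 5 risen, Epcam by 1.52, with summed levels from 8.36 to 8.44 against from 8.15 to 8.21. By limma 0 of 9 lymphocyte and 0 of 5 neutrophil markers passed (1 and 0 at an unadjusted p under 0.05, as for 0 of the hepatocyte markers). The part of other cells in the secretory gene result and in the member results was not tested.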

How the data were processed

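The authors deposited 1 log2 signal for each probe set and array. Per the submitters' processing notes these come from Expression Console with RMA, versions not given. RMA equalises the distribution of values between arrays, so a difference is relative to the other transcripts, and it compresses differences near background. Arrays have no read depth, and their number limits the precision. Of 22690 probe sets 64 were controls, 20380 carried 1 gene symbol, 691 several and 1555 none, and only those with 1 symbol were kept. Member and list symbols used by neither the platform nor RefSeq were changed to the platform symbol through RefSeq synonyms. Promoter sequences came from RefSeq (GRCm38.p6).

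All 12393 genes were fitted with limma 3.58.1 (lmFit and eBayes, R 4.3.3), with the data.table package (version 1.17.8), and 95% intervals are unadjusted. The fit was tested on simulated data. The members, roles and gene lists were chosen with earlier results of these data known. Genes named are all members and, of each list, up to 3 per direction with the smallest p. Alternatives covered probe set choice, a filter on dim genes, scaling, variance prior, array weights, a replicate block, thresholds and leaving out each array. List counts under them were added after seeing the data.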

Additional observations from a re-analysis of the deposited data

How the results depend on the processing

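The 10 calls among members were small changes measured on 3 arrays a genotype, and signal near background limits the dimmer members. The members called lower numbered 8 and those called higher 2. Without variance moderation the counts were 3 and 1, with 1271 genes called in all, at an adjusted p under 0.01 they were 2 and 1, with 918 genes, and at a change of at least 1.5-fold they were 0 and 0, with 358 genes. Leaving out each array in turn gave from 3 to 5 members lower and from 1 to 2 higher, with 1267 to 1700 genes called of 1967 in the full fit. Fewer arrays leave fewer degrees of freedom. With the replicate number as a block, 7 members were called lower and 2 higher, with 1505 genes in all, and Bad was the member lost (adjusted p = 0.0576). Deviations of same-numbered arrays correlated at -0.01, -0.01 and 0.10 across genes, and those of differently numbered arrays at -0.07 to 0.07. With 3 arrays a genotype these values cannot settle whether the numbers pair the samples. Casp8 and Atr kept an adjusted p under 0.05 in each alternative fit run for them, Zmat3 missed it without variance moderation (adjusted p = 0.0539) and Bcl2l1 with the mean of its probe sets (adjusted p = 0.149). Without single arrays the difference of Cdkn2a ran from -0.13 to 0.055, positive without wild-type replicate 3 (0.055) and not past the threshold. Quantile normalization and median centring left the same 10 members called.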
